A study of Mus musculus with 22 samples.

Results

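Transcripts of 10 genes that carry glucose into the cell and break it down to lactate were followed in mouse embryonic stem cells with deletions at the HoxB locus. The genes were taken by symbol from the deposited gene tables: the glucose transporters Slc2a1 and Slc2a3, the hexokinases Hk1 and Hk2, and the enzymes Pfkp, Aldoa, Pgk1, Eno1, Pkm and Ldha. All 10 were present among 52535 symbols, and all 10 passed the filter on low counts that left 16765 genes for testing. The cells were E14, an established line of mouse embryonic stem cells, taken off LIF and the kinase inhibitors PD0325901 and CHIR99021 and exposed to 2 µM retinoic acid during 1 day. The 4 genotypes had 3 libraries each: E1-KO, without enhancer E1; E2-KO, without enhancer E2; D-KO, a label that is not spelled out and is read here as the loss of both; and unedited WT cells. All 4 received retinoic acid, so no untreated baseline enters the comparisons. The libraries of a genotype are called biological replicates in the series, with no word on separate clones or cultures; p-values therefore cover only the spread between these samples, which may be technical.

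Glycolysis splits glucose in the cytosol into pyruvate and yields ATP and building blocks; lactate dehydrogenase then turns pyruvate into lactate and restores the NAD+ that the pathway needs. Naive mouse embryonic stem cells use both glycolysis and mitochondrial respiration, the later primed state leans strongly on glycolysis, and early lineage choice is accompanied by a change in that balance. Many of these genes are known targets of the hypoxia-inducible factors and of Myc.

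Gene counts summed to 9101547 to 13007735 per library. The 10 genes took 0.800% to 0.823% of E1-KO, 0.932% to 0.955% of E2-KO, 1.04% to 1.06% of D-KO and 0.860% to 1.07% of WT counts. HoxB transcripts served to check the genotypes: 9 of 10 HoxB genes were lower in each KO genotype than in WT. Pluripotency markers were abundant everywhere, with summed levels of 7112 to 7488 CPM (counts scaled to a common library size by TMM) in E1-KO, 6591 to 7070 CPM in E2-KO, 5552 to 5747 CPM in D-KO and 3226 to 5291 CPM in WT cells. Fibroblast markers summed to at most 12.9 CPM in any library, and 4 of the 10 were at 0 in each genotype, among them Lum and S100a4 each time. The WT libraries stood far apart from each other. The median coefficient of variation of the 10 genes was 2.55% for E1-KO, 2.37% for E2-KO and 1.46% for D-KO, against 11.4% for WT cells. The main fit used 1 spread per gene for all genotypes, so its standard errors and p-values do not reflect this difference. Spearman's rho between a gene's GC content and its level relative to the mean of all libraries was 0.25 to 0.35 for E1-KO libraries, 0.30 to 0.43 for E2-KO libraries and −0.10 to −0.02 for D-KO libraries. It was 0.14 in WT replicate 2, but −0.56 and −0.43 in WT replicates 1 and 3. The part of these 2 WT libraries in the differences from WT was not tested except where values without them, or with the GC trend removed, are given.

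Among the KO genotypes, 6 of the 10 genes stood in one order. Slc2a1, Aldoa, Pgk1, Eno1, Pkm and Ldha were lowest in E1-KO, intermediate in E2-KO and highest in D-KO cells, with no library of one genotype overlapping another. This order was noticed after the values had been seen, and 6.30% of all genes tested held it too. At an edgeR adjusted p below 0.05, only Ldha was called between E1-KO and E2-KO cells. Aldoa and Pkm were not called between D-KO and E2-KO cells. Ldha, lactate dehydrogenase A, showed the widest spacing. Slc2a3, the high-affinity transporter GLUT3, went the other way in D-KO cells, and Hk1 was higher in every KO genotype than in WT.

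**Figure D1:**
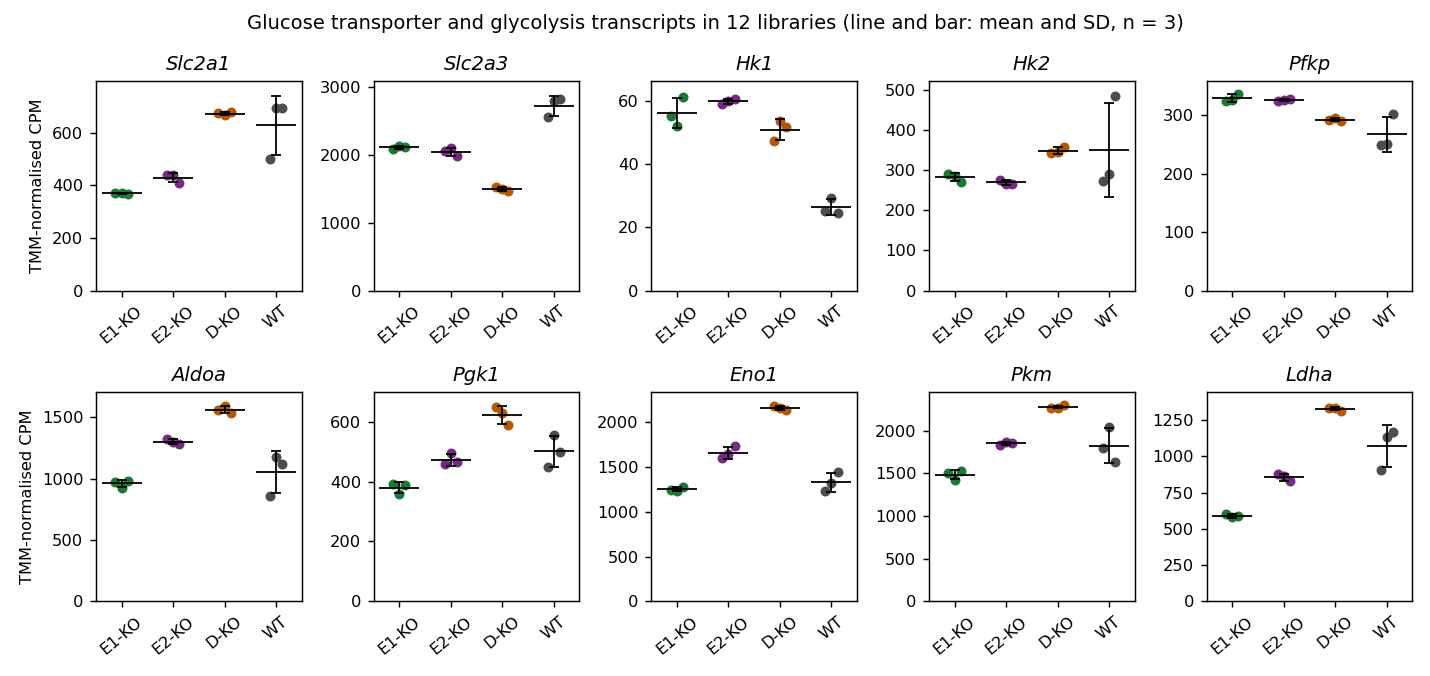
TMM-normalised CPM of the 10 genes in each of the 12 libraries, by genotype on the horizontal axis; points are libraries, and the line and bar give the mean and SD (n = 3). Ldha stood at 580.3 to 603 CPM in E1-KO, 831 to 876 CPM in E2-KO, 1316 to 1336 CPM in D-KO and 904 to 1172 CPM in WT cells, and the WT points lay farther apart than those of the KO genotypes in most panels.

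Levels were compared between genes per kilobase of annotated exon, merged over all transcripts of a gene. The longest transcript was far shorter than that for Eno1 (2027 against 5379 bases), Aldoa (1549 against 3710) and Pkm (2432 against 5001). For Slc2a3 the lengths were closer (6253 against 7245 bases). Ranks and ties between genes can therefore depend on the length used. The levels of Eno1 and Pgk1 may also lack reads that fit near copies. In D-KO cells Pkm, at 455 ± 3.30 CPM per kb (SD, n = 3), was the most abundant of the 10, followed by Aldoa at 420.5 ± 7.76, Eno1 at 402 ± 3.68 and Ldha at 401 ± 3.22 CPM per kb. The last pair did not differ beyond their spread. In E1-KO cells Pkm, at 297 ± 11.2 CPM per kb, and Slc2a3, at 292 ± 2.57 CPM per kb, led and overlapped in spread, while Ldha reached 178 ± 3.51 CPM per kb. In E2-KO cells Pkm led at 370.1 ± 4.03 CPM per kb, followed by Aldoa at 349.9 ± 5.58 CPM per kb. In WT cells Slc2a3, at 376 ± 20.2 CPM per kb, and Pkm, at 365 ± 41.7 CPM per kb, led on this scale and did not differ on it beyond their spread. Hk1 was the least abundant in all 4 genotypes, at 6.57 ± 0.55 CPM per kb in E1-KO, 7.01 ± 0.09 CPM per kb in E2-KO, 5.96 ± 0.39 CPM per kb in D-KO and 3.08 ± 0.30 CPM per kb in WT cells. Pfkp was next to last, at 19.9 to 24.5 CPM per kb over the genotype means.

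Because 6 of the genes moved together, their promoters were read for the core letters bound by hypoxia-inducible factors (ACGTG or GCGTG) and for the E-box CACGTG, which Myc and the glucose sensor ChREBP can bind. Windows ran from 250 bases before to 50 bases after the start given by RefSeq (GRCm38.p6), with both strands searched and every CACGTG also holding ACGTG. Of the 10 genes, 9 had a window, and the counts use the first listed start of each. ACGTG was found in 4 of the 9, against 19.67% of 27025 promoters in the same table, and GCGTG in 4 of the 9, against 32.46%. Either core was found in 6 of the 9, against 43.8% of all promoters, and CACGTG in 1 of the 9, against 7.24%. A core was found for Slc2a1, Pgk1, Eno1 and Ldha of the common order and for Hk2 and Pfkp outside it, with 2 in Hk2 and 4 in Pfkp. None was found for Aldoa and Pkm of the common order or for Hk1, although later listed starts of these 3 genes hold cores. The windows of Ldha, Pgk1 and Slc2a1 are printed as examples with cores and that of Hk1 as one without; capitals mark ACGTG or GCGTG on either strand.
Ldha, chr7:46845554-46845853, plus strand: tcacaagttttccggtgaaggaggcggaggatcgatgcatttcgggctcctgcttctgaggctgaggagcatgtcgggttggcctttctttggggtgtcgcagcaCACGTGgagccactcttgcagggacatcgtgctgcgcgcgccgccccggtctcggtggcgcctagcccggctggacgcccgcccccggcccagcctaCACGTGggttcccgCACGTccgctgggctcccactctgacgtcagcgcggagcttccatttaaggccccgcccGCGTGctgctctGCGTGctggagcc
Pgk1, chrX:106186850-106187149, plus strand: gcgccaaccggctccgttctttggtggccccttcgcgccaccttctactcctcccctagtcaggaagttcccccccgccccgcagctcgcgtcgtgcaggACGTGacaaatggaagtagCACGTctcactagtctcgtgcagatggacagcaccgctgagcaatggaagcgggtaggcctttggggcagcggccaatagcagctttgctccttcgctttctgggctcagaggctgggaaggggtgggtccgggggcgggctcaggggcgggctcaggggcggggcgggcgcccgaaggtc
Slc2a1, chr4:119108495-119108794, plus strand: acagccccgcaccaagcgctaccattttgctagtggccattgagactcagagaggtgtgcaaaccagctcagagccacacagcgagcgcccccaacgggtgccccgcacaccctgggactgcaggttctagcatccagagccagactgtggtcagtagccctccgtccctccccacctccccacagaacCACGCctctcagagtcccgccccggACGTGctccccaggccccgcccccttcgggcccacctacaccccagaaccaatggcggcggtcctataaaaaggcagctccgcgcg
Hk1, chr10:62379859-62380158, minus strand: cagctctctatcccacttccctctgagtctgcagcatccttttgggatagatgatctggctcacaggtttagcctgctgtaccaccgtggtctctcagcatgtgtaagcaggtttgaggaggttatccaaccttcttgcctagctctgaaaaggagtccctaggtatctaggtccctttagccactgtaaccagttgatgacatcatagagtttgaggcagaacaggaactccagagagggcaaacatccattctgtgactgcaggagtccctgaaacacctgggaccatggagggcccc
The Ldha window held 5 ACGTG, 2 GCGTG and 2 CACGTG, counted over both strands, so that each CACGTG gives 2 ACGTG. The Pgk1 window held 2 ACGTG, and the Slc2a1 window 1 of each core. The Hk1 window shown, the first of its listed starts, held neither, while that of a second listed start (chr10:62340372-62340671) held 2 ACGTG and 3 GCGTG. Matches describe the letters only, and binding was not measured.

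D-KO cells were next compared with E1-KO cells. The labels do not say that D-KO was made from the E1-KO cells. A further deletion and a difference between edited lines therefore cannot be told apart. Of the 10 genes, 6 were higher and 1 lower in D-KO than in E1-KO cells at an adjusted p below 0.05, against 15.9% of all genes tested called (8.43% higher and 7.52% lower). The median log2 fold change was 0.66 over the 10 genes and −0.01 over all genes. It was 0.05 over the 6293 genes of an average log2 CPM no lower than 5. The libraries did not overlap for 9 of the 10, against 54.4% of all genes. The shares given here and below are over all genes tested, weakly expressed ones included, and not over genes of like level. All 7 calls held in each of 23 alternative settings, which included leaving out any 1 library and removing trends with GC content and length.

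Ldha gave the largest of these differences. It stood at 1336, 1334 and 1316 CPM in D-KO libraries, against 603, 580.3 and 586 CPM in E1-KO libraries. Every D-KO library was above every E1-KO library, and the log2 fold change was 1.17 ± 0.11 (SE), a fold of 2.25 (edgeR adjusted p = 3.2e-05). Ldha makes the A subunit of lactate dehydrogenase, the form that favours lactate production.

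Slc2a1, the widely expressed transporter GLUT1, stood at 673, 665 and 679 CPM in D-KO libraries, against 370.0, 369.9 and 368 CPM in E1-KO libraries. The groups did not overlap, and the log2 fold change was 0.87 ± 0.12 (edgeR adjusted p = 0.00046). Eno1, the enolase that forms phosphoenolpyruvate, had 2183, 2159 and 2144 CPM in D-KO libraries, against 1243, 1234 and 1279 CPM in E1-KO libraries. Its D-KO libraries were all above those of E1-KO, with a log2 fold change of 0.79 ± 0.10 (edgeR adjusted p = 0.00021).

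Pgk1, phosphoglycerate kinase, which makes the first ATP of the pathway, had 648, 629 and 589 CPM in D-KO libraries, against 392, 358 and 388 CPM in E1-KO libraries, without overlap. The log2 fold change was 0.71 ± 0.10 (edgeR adjusted p = 0.00066). Aldoa, the aldolase that splits fructose 1,6-bisphosphate, differed by 0.70 ± 0.12 on the log2 scale, with 1531 to 1589 CPM in D-KO and 926 to 983 CPM in E1-KO libraries (edgeR adjusted p = 0.0016). Pkm, the muscle-type pyruvate kinase gene that stem cells use, differed by 0.62 ± 0.10, with 2267 to 2296 CPM in D-KO and 1423 to 1530.2 CPM in E1-KO libraries (edgeR adjusted p = 0.0016). Neither gene overlapped between the genotypes.

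Slc2a3 was the 1 gene that was lower in D-KO than in E1-KO cells. It stood at 1522, 1494 and 1463 CPM in D-KO libraries, against 2090.5, 2124 and 2121 CPM in E1-KO libraries. Every D-KO library was below every E1-KO library, with a log2 fold change of −0.50 ± 0.09 (edgeR adjusted p = 0.0032). The transporters thus differed in opposite directions, with Slc2a1 up and Slc2a3 down.

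The early, rate-setting enzymes were not called between D-KO and E1-KO cells. Hk1 differed by −0.14 ± 0.11, Hk2 by 0.30 ± 0.17 and Pfkp by −0.17 ± 0.10 on the log2 scale (edgeR adjusted p = 0.40, 0.23 and 0.26 in that order of genes). The libraries of Hk2 and Pfkp did not overlap all the same, with Hk2 at 341 to 358 CPM in D-KO and 271 to 289 CPM in E1-KO libraries. Without WT replicate 3, Hk2 was called at 0.29 (edgeR adjusted p = 0.0037) and Pfkp at −0.18 (edgeR adjusted p = 0.029). A fit to the 9 KO libraries alone, chosen after the spread of the WT libraries had been seen, called Hk2 higher and Pfkp lower but not Hk1. That fit called 48.5% of all genes.

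D-KO cells differed from E2-KO cells in 5 of those 7 genes. Of the 10 genes, 4 were higher (Slc2a1, Pgk1, Eno1 and Ldha) and 1 lower (Slc2a3) in D-KO than in E2-KO cells, against 4.48% of all genes called (1.84% higher and 2.64% lower). The median log2 fold change was 0.34 over the 10 genes and −0.02 over all genes, and the libraries did not overlap for all 10, against 45.8% of all genes. Ldha, at 1316 to 1336 CPM in D-KO libraries, was above the 876, 864 and 831 CPM of the E2-KO libraries, with a log2 fold change of 0.63 ± 0.11 (edgeR adjusted p = 0.0054). It was called in all 23 alternative settings. Slc2a1, at 665 to 679 CPM in D-KO libraries, against 439, 438 and 409.6 CPM in E2-KO libraries, differed by 0.65 ± 0.12 (edgeR adjusted p = 0.0083) and missed the threshold without E2-KO replicate 3 (0.62, edgeR adjusted p = 0.051). Slc2a3, at 1463 to 1522 CPM in D-KO libraries, against 2059, 2097 and 1980.0 CPM in E2-KO libraries, differed by −0.45 ± 0.09 (edgeR adjusted p = 0.014), and its adjusted p was 0.053 to 0.091 without any 1 library of either genotype.

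Pgk1 and Eno1 were nearer the threshold between D-KO and E2-KO cells. Pgk1, at 589 to 648 CPM in D-KO libraries, against 459, 496 and 465 CPM in E2-KO libraries, differed by 0.39 ± 0.10 (edgeR adjusted p = 0.046). Eno1, at 2144 to 2183 CPM in D-KO libraries, against 1603, 1648 and 1734 CPM in E2-KO libraries, differed by 0.38 ± 0.10 (edgeR adjusted p = 0.041). Each was called in 11 of 23 alternative settings, with log2 fold changes of 0.33 to 0.44 for Pgk1 and 0.32 to 0.61 for Eno1. Their calls were lost without any 1 of the KO libraries, with an adjusted p of up to 0.19 for both. This included the E1-KO libraries, which are not part of the comparison. Both calls held without any 1 of the WT libraries. The 5 genes not called were Hk1 (−0.23 ± 0.11), Hk2 (0.37 ± 0.17), Pfkp (−0.15 ± 0.10), Aldoa (0.27 ± 0.12) and Pkm (0.30 ± 0.10). Once trends with GC content and length were taken out, Aldoa and Pkm were called at 0.48 and 0.53 (edgeR adjusted p = 0.017 and 0.0029), and Hk1 and Pfkp stood at −0.06 and −0.24 (edgeR adjusted p = 0.76 and 0.073). In a fit to the 9 KO libraries alone, chosen after the spread of the WT libraries had been seen, all 10 genes were called, 7 higher and 3 lower, at log2 fold changes of −0.46 to 0.65, against 37.6% of all genes called in that fit.

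Between E1-KO and E2-KO cells 1 of the 10 genes was called, against 0.596% of all genes (0.322% higher and 0.274% lower). Ldha stood at 580.3 to 603 CPM in E1-KO and 831 to 876 CPM in E2-KO libraries, a log2 fold change of −0.54 ± 0.11 (edgeR adjusted p = 0.038). This call was lost without any 1 KO library, D-KO libraries included (edgeR adjusted p of 0.084 to 0.22), while the log2 fold change stayed between −0.56 and −0.51. It held without any 1 of the WT libraries. The libraries did not overlap for 6 of the 10 genes, against 34.7% of all genes, and these were the 6 of the common order. Aldoa (−0.43 ± 0.12), Eno1 (−0.41 ± 0.10), Pgk1 (−0.32 ± 0.10), Pkm (−0.32 ± 0.10) and Slc2a1 (−0.22 ± 0.12) missed the threshold in the 12-library fit and were called with Ldha in the fit to the 9 KO libraries, against 21.3% of all genes called in that fit. Slc2a3, Hk1, Hk2 and Pfkp overlapped between E1-KO and E2-KO libraries.

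The order E1-KO, E2-KO, D-KO, noticed after the values had been seen, held without overlap for 6.30% of all genes tested, and the opposite order for 3.69%. Summed over the 10 genes, the level was 7678 to 7923 CPM in E1-KO, 9202 to 9361 CPM in E2-KO and 10718 to 10870 CPM in D-KO libraries, against 8838 to 10284 CPM in WT libraries. Other features of the libraries ran in the same order. The share of reads on mitochondrially encoded genes was 1.36% to 1.48% of E1-KO, 1.63% to 1.81% of E2-KO and 2.53% to 2.69% of D-KO counts, against 1.94% to 5.88% of WT counts. Summed primitive endoderm markers stood at 143 to 152 CPM in E1-KO, 225 to 233 CPM in E2-KO and 237 to 242 CPM in D-KO, against 378 to 425 CPM in WT libraries, and none of the 11 markers was at 0 in any genotype. The part of these in the glycolysis differences was not tested. In bulk RNA, fewer cells of one type and less RNA per cell cannot be told apart.

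**Figure D2:**
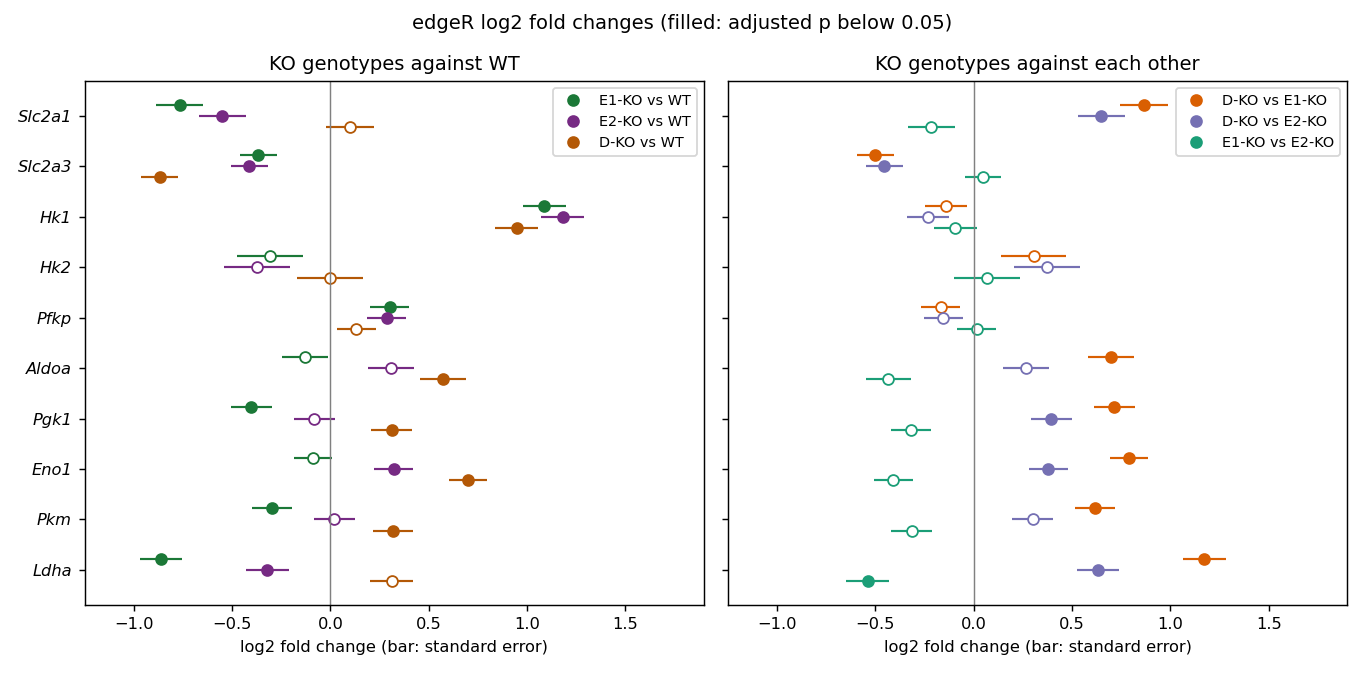
edgeR log2 fold changes of the 10 genes for the KO genotypes against WT (left) and against each other (right), with standard errors as bars and filled points for an adjusted p below 0.05. On the right, 6 genes are filled on the positive side for D-KO against E1-KO, Ldha farthest at 1.17, and Slc2a3 is filled on the negative side.

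Against WT, E1-KO cells had less of both glucose transporters and of Ldha, and more of Hk1. Of the 10 genes, 2 were higher (Hk1 and Pfkp) and 5 lower (Slc2a1, Slc2a3, Pgk1, Pkm and Ldha) in E1-KO than in WT cells, against 34.2% of all genes called (15.7% higher and 18.5% lower). The median log2 fold change was −0.30 over the 10 genes and −0.01 over all genes. The libraries did not overlap for 7 of the 10, against 41.1% of all genes. Ldha, at 580.3 to 603 CPM in E1-KO libraries, was below the 904, 1136 and 1172 CPM of the WT libraries, and the log2 fold change was −0.86 ± 0.11 (edgeR adjusted p = 5.0e-05). Slc2a1, at 368 to 370.0 CPM in E1-KO libraries, was below the 499, 692 and 692 CPM of the WT libraries too, with a log2 fold change of −0.77 ± 0.12 (edgeR adjusted p = 0.00032). Both were called in all 22 alternative settings. In a fit to only the 6 libraries of the genotypes compared, the calls against WT that held were those of Hk1, Slc2a1 and Ldha in E1-KO cells, of Hk1 in E2-KO cells, and of Hk1, Eno1 and Slc2a3 in D-KO cells.

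Slc2a3, at 2090.5 to 2124 CPM in E1-KO libraries, against 2556, 2789 and 2827 CPM in WT libraries, was lower in E1-KO cells by a log2 fold change of −0.37 ± 0.09 (edgeR adjusted p = 0.0082), without overlap. Once trends with GC content and length were taken out, its difference was −0.18 (edgeR adjusted p = 0.13). Pgk1 differed by −0.40 ± 0.10, with 358 to 392 CPM in E1-KO and 449.7 to 555 CPM in WT libraries (edgeR adjusted p = 0.0090); without E1-KO replicate 2 the adjusted p was 0.051. Pfkp, the platelet-type phosphofructokinase at the committed step, was higher at 324 to 336 CPM in E1-KO libraries, against 248 to 302 CPM in WT libraries (log2 fold change 0.30 ± 0.10, edgeR adjusted p = 0.030). Leaving out any 1 E1-KO library ended that call (edgeR adjusted p of 0.072 to 0.095). Pkm differed by −0.30 ± 0.10 (edgeR adjusted p = 0.039) and was called in 9 of 22 alternative settings, with the call lost without any 1 KO library (edgeR adjusted p of 0.062 to 0.14). Removing GC content and length trends moved Pfkp to 0.54 and Pkm to −0.73 (edgeR adjusted p = 8.5e-05 and 3.3e-05).

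Aldoa, Eno1 and Hk2 were not called in E1-KO against WT cells and overlapped between them. Their log2 fold changes were −0.13 ± 0.12, −0.09 ± 0.10 and −0.31 ± 0.17. Removing GC content and length trends gave −0.55 for Aldoa and −0.52 for Eno1 (edgeR adjusted p = 0.0020 and 0.0048). The transcripts of Aldoa and Eno1 have a GC content of 56.9% and 57.4%, against 47.4% for Slc2a3. Aldoa was also called without WT replicate 1 (−0.25, edgeR adjusted p = 0.030).

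In E2-KO cells, 3 of the 10 genes were higher (Hk1, Pfkp and Eno1) and 3 lower (Slc2a1, Slc2a3 and Ldha) than in WT, against 35.3% of all genes called (16.7% higher and 18.6% lower). The median log2 fold change was −0.03 over the 10 genes and 0.00 over all genes, and the libraries did not overlap for 7 of the 10, against 41.0% of all genes. Slc2a1 differed by −0.55 ± 0.12, with 409.6 to 439 CPM in E2-KO and 499 to 692 CPM in WT libraries (edgeR adjusted p = 0.0034), and lost its call only in the fit to the 6 libraries of these genotypes (edgeR adjusted p = 0.057) among 22 settings. Slc2a3 differed by −0.41 ± 0.09, with 1980.0 to 2097 CPM in E2-KO and 2556 to 2827 CPM in WT libraries (edgeR adjusted p = 0.0042). Removing GC content and length trends left −0.20 (edgeR adjusted p = 0.097).

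The other calls in E2-KO against WT cells depended on the setting. Eno1 was at 1603 to 1734 CPM in E2-KO and 1229 to 1444 CPM in WT libraries, a log2 fold change of 0.32 ± 0.10 (edgeR adjusted p = 0.020). It turned to −0.15 once trends with GC content and length were taken out (edgeR adjusted p = 0.38) and was not called without E2-KO replicate 2 or 3 (edgeR adjusted p = 0.059 and 0.078). Ldha (−0.32 ± 0.11, edgeR adjusted p = 0.033) and Pfkp (0.29 ± 0.10, edgeR adjusted p = 0.036) were each called in 8 of 22 settings. Both lost the call without any 1 KO library (edgeR adjusted p of 0.053 to 0.11), and Pfkp also without WT replicate 1 (0.067). Aldoa was just short of the threshold at 0.31 ± 0.12 (edgeR adjusted p = 0.055), and passed it without WT replicate 2 (0.40, edgeR adjusted p = 0.0031) or 3 (0.35, edgeR adjusted p = 0.017). Pgk1 (−0.08), Pkm (0.02) and Hk2 (−0.38) were not called. Once trends with GC content and length were taken out, Pkm was called lower (−0.46, edgeR adjusted p = 0.0018), as was Hk2 (−0.50, edgeR adjusted p = 0.038), and Slc2a1, Ldha and Pfkp stood at −0.88, −0.49 and 0.66. Without WT replicates 1 and 3, Pkm and Pgk1 were called lower (−0.14 and −0.23, edgeR adjusted p = 0.0066 and 0.00056). Hk2 also passed without WT replicate 1 or 2 (−0.53 and −0.49, edgeR adjusted p = 0.025 and 0.027).

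Aldoa, Eno1 and Hk1 were higher and Slc2a3 was lower in D-KO than in WT cells, and 2 more calls were marginal. Of the 10 genes, 5 were higher (Hk1, Aldoa, Pgk1, Eno1 and Pkm) and 1 lower (Slc2a3) in D-KO than in WT cells, against 22.8% of all genes called (10.6% higher and 12.2% lower). The median log2 fold change was 0.31 over the 10 genes and −0.02 over all genes, and the libraries did not overlap for 7 of the 10, against 32.8% of all genes. Slc2a3 had 1463 to 1522 CPM in D-KO and 2556 to 2827 CPM in WT libraries, a log2 fold change of −0.87 ± 0.09 and a fold of 0.55 (edgeR adjusted p = 2.3e-05). Eno1 differed by 0.70 ± 0.10, with 2144 to 2183 CPM in D-KO and 1229 to 1444 CPM in WT libraries (edgeR adjusted p = 0.00020). Both calls held in all 22 alternative settings. Aldoa, at 1560.0, 1589 and 1531 CPM in D-KO libraries, was above the 854, 1176 and 1119.8 CPM of the WT libraries, with a log2 fold change of 0.57 ± 0.12 (edgeR adjusted p = 0.0032). It was 0.31 once trends with GC content and length were taken out (edgeR adjusted p = 0.056).

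Pgk1 (0.31 ± 0.10, edgeR adjusted p = 0.044) and Pkm (0.32 ± 0.10, edgeR adjusted p = 0.039) passed narrowly, each in 7 of 22 settings. Both calls were lost without any 1 KO library (edgeR adjusted p of 0.058 to 0.14), and that of Pgk1 also without WT replicate 1 (0.077). For Pkm the log2 fold change was 0.08 without the GC content and length trends. Ldha, at 1316 to 1336 CPM in D-KO and 904 to 1172 CPM in WT libraries, did not overlap but missed the threshold at 0.31 ± 0.11 (edgeR adjusted p = 0.051). It passed without WT replicate 2 (0.36, edgeR adjusted p = 0.0071) or 3 (0.37, edgeR adjusted p = 0.0053).

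Slc2a1, Hk2 and Pfkp in D-KO cells lay within the range of the WT libraries. Slc2a1 differed by 0.10 ± 0.12 and Pfkp by 0.13 ± 0.10 on the log2 scale, and Pfkp was called without WT replicate 3 (0.22, edgeR adjusted p = 0.023) and with GC content and length trends removed (0.42, edgeR adjusted p = 0.00099). Hk2, the inducible hexokinase bound to mitochondria, had 341, 346 and 358 CPM in D-KO libraries, against 273, 290.5 and 484 CPM in WT libraries. WT replicate 3 stood alone at the top, and without it the log2 fold change was 0.30 (edgeR adjusted p = 0.0069), against 0.00 ± 0.17 with it.

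Hk1, the constitutive hexokinase that traps glucose in the cell, and Slc2a3 were called in the same direction in all 3 comparisons with WT, which share the WT libraries. Hk1 stood at 55.1, 52.0 and 61.2 CPM in E1-KO, 59.0, 60.0 and 60.5 CPM in E2-KO, and 47.1, 53.6 and 51.8 CPM in D-KO libraries, against 25.1, 29.2 and 24.7 CPM in WT libraries. Every KO library was above every WT library. The log2 fold changes were 1.09 ± 0.11 for E1-KO, 1.18 ± 0.11 for E2-KO and 0.95 ± 0.11 for D-KO cells (edgeR adjusted p = 7.8e-06, 5.0e-06 and 4.7e-05), and all 3 calls held in every one of 22 alternative settings. Slc2a3 was lower in all 3.

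**Figure D3:**
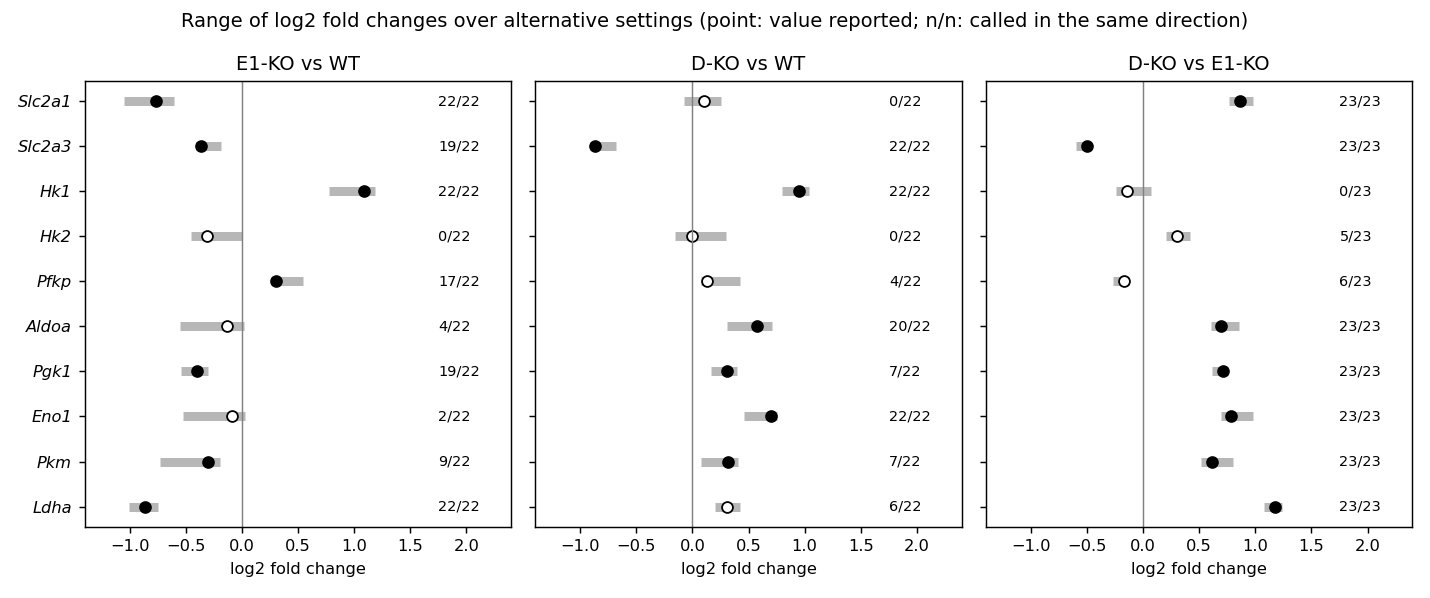
Range of the log2 fold change of each gene over the alternative settings (grey bar), with the value reported (point, filled where adjusted p was below 0.05) and, at the right, in how many settings the gene was called in the same direction as the point. For D-KO against E1-KO, 7 genes were called in 23 of 23 settings; Hk1 was called in 22 of 22 in both comparisons with WT shown.

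Some counts may hold reads of near copies or of overlapping genes, or may lack reads that fit a near copy equally well. Reads aligned to more than 1 place were set apart from the gene counts, at 0.429 to 0.542 times the counted reads. Levels of Pgk1 and Eno1 may therefore be understated. Of the 100-base windows of Pgk1 exons, 67.0% recur in other genes, mainly the processed pseudogenes Pgk1-rs7, which had 10 to 39 counts a library, and Gm5537, which had 0 in all. Of those of Eno1, 59.0% recur elsewhere, mainly in Eno1b, which had 3321 to 7177 counts a library, and in the pseudogene Gm4735, which had 425 to 1274. Eno1b itself was higher in D-KO than in E1-KO cells (662 ± 22.8 and 484 ± 9.05 CPM, log2 fold change 0.45 ± 0.13, edgeR adjusted p = 0.034), a call made in 13 of 23 settings and lost without any 1 KO library. The strand setting of the counting is not given in the sources used here. Slc2a1, Hk1, Pfkp and Aldoa overlap exons of a gene on the opposite strand by 105, 157, 748 and 25 bases, and such reads cannot be told apart.

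The other genes of glycolysis, 15 of 18 listed being tested, gave 5 higher and 1 lower in D-KO than in E1-KO cells, with a median log2 fold change of 0.29. Of all genes tested, 8.43% were called higher and 7.52% lower in that comparison. Tpi1, triosephosphate isomerase, stood in the same order as the 6 genes, at 138, 136 and 145 CPM in E1-KO, 205, 198 and 210.2 CPM in E2-KO and 322, 332 and 324 CPM in D-KO libraries, against 328, 404 and 301 CPM in WT libraries. Its log2 fold change was 1.22 ± 0.11 in D-KO against E1-KO cells (edgeR adjusted p = 2.7e-05), 0.67 ± 0.11 in D-KO against E2-KO cells (edgeR adjusted p = 0.0044) and −1.30 ± 0.11 in E1-KO against WT cells (edgeR adjusted p = 2.0e-06). Ldhb, the heart-type lactate dehydrogenase subunit that favours pyruvate, was highest in E1-KO cells, where Ldha was lowest. It averaged 230.5 ± 8.88 CPM in E1-KO, 164 ± 6.57 CPM in E2-KO and 161 ± 2.22 CPM in D-KO, against 109.5 ± 3.25 CPM in WT cells (SD, n = 3 each). Ldhb was lower in D-KO than in E1-KO cells by −0.52 ± 0.09 (edgeR adjusted p = 0.0018) and higher in E1-KO than in WT cells by 1.07 ± 0.09 (edgeR adjusted p = 1.5e-06). Ldhb was also higher in D-KO than in WT cells, by 0.56 ± 0.09 (edgeR adjusted p = 0.00057), and differed by −0.03 ± 0.09 between D-KO and E2-KO cells (edgeR adjusted p = 0.89). Pgam2, the muscle phosphoglycerate mutase, averaged 3.68 ± 0.59 CPM in D-KO, against 14.8 ± 5.32 CPM in WT cells (SD, n = 3 each), and was lower by −2.02 ± 0.29 (edgeR adjusted p = 0.00025). Tpi1 was not called between D-KO and WT cells (−0.08 ± 0.11, edgeR adjusted p = 0.64). Eno3, the muscle enolase, was higher in D-KO than in E1-KO cells (0.99 ± 0.17, edgeR adjusted p = 0.0020). Against WT, the list gave 3 higher and 2 lower in E1-KO, 4 higher and 3 lower in E2-KO, and 3 higher and 2 lower in D-KO cells. The shares of all genes called in those comparisons were 34.2%, 35.3% and 22.8%.

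Of the other glucose and lactate carriers, 9 of 13 listed were tested and 1 was called between D-KO and E1-KO cells, against 15.9% of all genes. Slc16a3, the lactate exporter MCT4, had 74.3, 78.6 and 62.1 CPM in D-KO libraries, against 19.7, 20.9 and 22.2 CPM in E1-KO libraries. The groups lay far apart, with a log2 fold change of 1.78 ± 0.21 (edgeR adjusted p = 0.00020). E2-KO libraries stood between them at 37.2, 42.2 and 27.6 CPM, and WT libraries at 55.9, 100.7 and 57.3 CPM. Slc16a3 was lower than in WT by −1.77 ± 0.21 in E1-KO cells (edgeR adjusted p = 4.0e-05) and by −1.01 ± 0.21 in E2-KO cells (edgeR adjusted p = 0.0026).

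Of the 13 genes for the entry of pyruvate into mitochondria, 2 were higher and none lower in D-KO than in E1-KO cells, against 15.9% of all genes called. Pdk1, a kinase that switches off pyruvate dehydrogenase, averaged 116 ± 5.07 CPM in D-KO, against 55.0 ± 2.75 CPM in E1-KO cells (SD, n = 3 each), a log2 fold change of 1.08 ± 0.12 (edgeR adjusted p = 0.00012). It was at 58.2 ± 4.13 CPM in E2-KO and 97.7 ± 16.6 CPM in WT cells. The other gene, Pdk3, differed by 0.48 ± 0.14 (edgeR adjusted p = 0.028) and lost its call without any 1 library of either genotype. Mpc1, a subunit of the mitochondrial pyruvate carrier, was higher than in WT by 0.68 ± 0.15 for E1-KO, 0.67 ± 0.15 for E2-KO and 0.68 ± 0.15 for D-KO cells (edgeR adjusted p = 0.0037, 0.0042 and 0.0053).

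In the citric acid cycle, 5 of 16 genes were higher and 1 lower in D-KO than in E1-KO cells, at a median log2 fold change of 0.18, and 4 were lower and none higher in E1-KO than in WT cells. Of all genes, 15.9% and 34.2% were called in those comparisons. Of the genes higher in D-KO than in E1-KO cells, Idh3a and Mdh2 were each called in 16 of 23 alternative settings and Ogdh in 18. Idh3a and Mdh2 lost the call without any 1 library of either genotype. In the pentose phosphate pathway, 1 of 7 genes was higher and none lower in D-KO than in E1-KO cells, against 15.9% of all genes called. This was G6pdx, its entry enzyme (0.49 ± 0.09, edgeR adjusted p = 0.0030). Of the 5 tested enzymes that run the pathway backwards in gluconeogenesis, 4 were higher than in WT for E1-KO, 5 for E2-KO and 1 for D-KO cells, and none was lower. The shares of all genes called higher were 15.7%, 16.7% and 10.6%. Pck2, the mitochondrial PEP carboxykinase, averaged 68.7 ± 5.31 CPM in D-KO, against 189 ± 4.52 CPM in E1-KO and 203 ± 14.0 CPM in E2-KO cells (SD, n = 3 each), and 67.9 ± 21.0 CPM in WT cells. It was lower in D-KO than in E1-KO cells by −1.46 ± 0.16 (edgeR adjusted p = 0.00013).

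**Figure D4:**
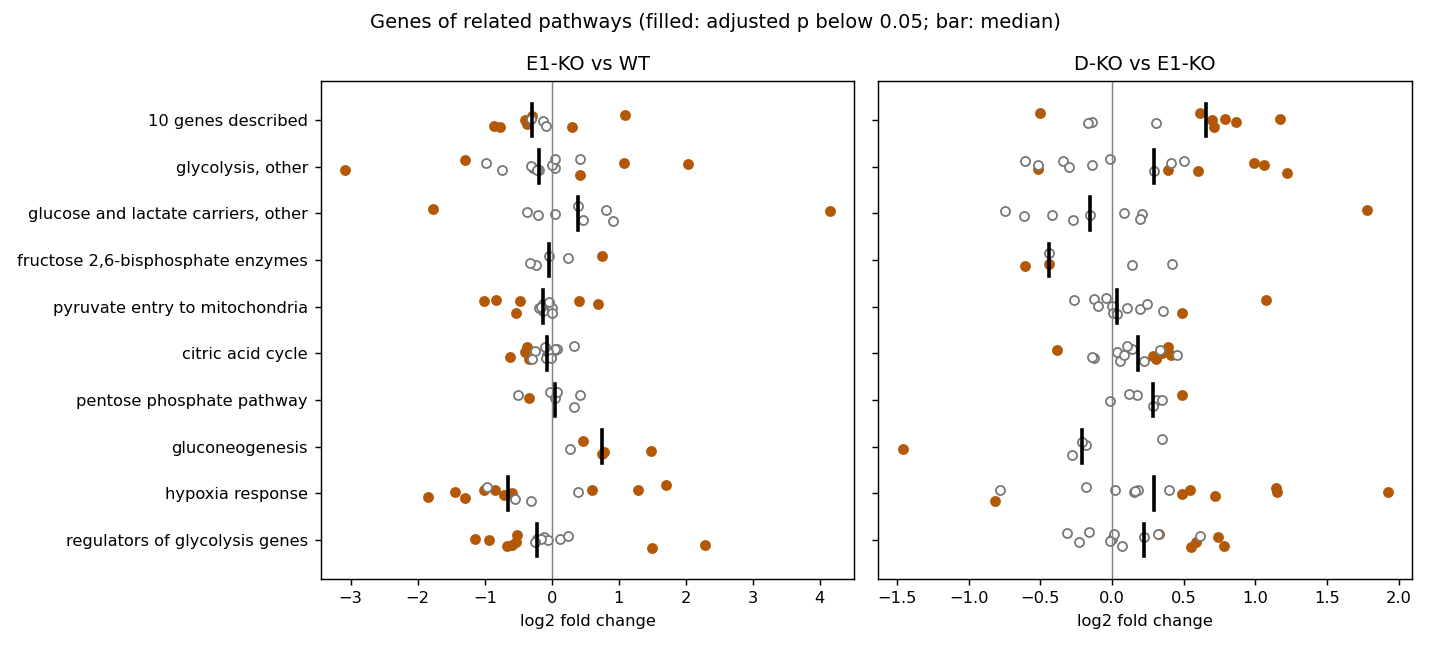
edgeR log2 fold changes of the genes of related pathways in E1-KO against WT (left) and D-KO against E1-KO (right); each point is a gene, filled for an adjusted p below 0.05, and the black bar is the median of the list. Among the sets shown, the 10 genes described have the median farthest to the right, at 0.66, in D-KO against E1-KO cells. Of the lists not shown, primitive endoderm markers (1.13), mitochondrially encoded genes (1.03) and early neural markers (0.80) had larger medians in that comparison. The others not shown had smaller ones.

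Hypoxia-response genes outside glycolysis were listed because hypoxia-inducible factors also drive many of the 10 genes. Of 14 tested, 6 were higher and 1 lower in D-KO than in E1-KO cells, 4 higher and 1 lower in D-KO than in E2-KO cells, and 3 higher and 7 lower in E1-KO than in WT cells. Those comparisons called 15.9%, 4.48% and 34.2% of all genes, in that order. Bnip3, a mitophagy receptor, had 80.2, 75.6 and 77.3 CPM in D-KO libraries, against 19.1, 21.8 and 20.5 CPM in E1-KO libraries and 24.9, 28.3 and 24.1 CPM in E2-KO libraries. WT libraries, at 77.3, 62.4 and 82.3 CPM, stood beside those of D-KO. The log2 fold change of Bnip3 was 1.92 ± 0.12 in D-KO against E1-KO cells (edgeR adjusted p = 1.5e-06) and −1.85 ± 0.12 in E1-KO against WT cells (edgeR adjusted p = 2.6e-07). P4ha1, a collagen prolyl hydroxylase subunit, was higher in D-KO than in E1-KO cells by 1.14 ± 0.12 (edgeR adjusted p = 7.1e-05). Vegfa, the angiogenic growth factor and a textbook hypoxia target, went the other way. It averaged 82.1 ± 5.09 CPM in D-KO, against 144 ± 1.14 CPM in E1-KO cells and 59.1 ± 14.0 CPM in WT cells, and was lower in D-KO than in E1-KO cells by −0.81 ± 0.14 (edgeR adjusted p = 0.0019).

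Among 15 regulators of glycolysis genes, 5 were higher and none lower in D-KO than in E1-KO cells, against 15.9% of all genes called. Epas1, which encodes HIF-2α, averaged 63.9 ± 1.78 CPM in D-KO, against 38.2 ± 1.51 CPM in E1-KO, 36.0 ± 1.98 CPM in E2-KO and 84.2 ± 9.81 CPM in WT cells (SD, n = 3 each). Its log2 fold change was 0.74 ± 0.11 in D-KO against E1-KO cells (edgeR adjusted p = 0.00061). Myc averaged 116 ± 4.88 CPM in D-KO, against 67.5 ± 3.11 CPM in E1-KO and 61.9 ± 14.9 CPM in WT cells, with log2 fold changes of 0.78 ± 0.15 against E1-KO and 0.90 ± 0.15 against WT (edgeR adjusted p = 0.0032 and 0.00062). Mycn, its relative, was higher than in WT in each KO genotype, by 2.28 ± 0.33 for E1-KO, 2.13 ± 0.33 for E2-KO and 2.35 ± 0.33 for D-KO cells (edgeR adjusted p = 0.00019, 0.00035 and 0.00024). Mlxipl, which encodes ChREBP, was also higher than in WT, by 1.50 ± 0.18, 1.54 ± 0.18 and 1.34 ± 0.18 in that order (edgeR adjusted p = 2.8e-05, 2.6e-05 and 0.00013). Against WT, the list gave 2 higher and 6 lower in E1-KO, 4 higher and 4 lower in E2-KO, and 4 higher and 2 lower in D-KO cells. Of all genes, 34.2%, 35.3% and 22.8% were called in those comparisons.

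The mean of the standardised log2 levels of the 10 genes gave a profile over the 12 libraries. Ranked against it were 5996 genes of an average log2 CPM no lower than 5. The 10 genes themselves and provisional symbols, such as Gm and Rik names, were left out of the ranking. The profiles most like this mean were those of Ccne1 (Pearson's r = 0.97), Smpd4 (0.97), Mov10 (0.97), Srm (0.97) and Pes1 (0.94). The libraries share genotypes and depth, so the coefficients describe likeness only. The mean also joins genes that ran in opposite directions, so it is not a profile that all of them share. Slc2a3 had a negative r with every other gene of the set, and Hk1 and Pfkp had −0.54 and −0.65 with Slc2a1. Across the 12 libraries, Slc2a3 had r = −0.82 with Eno1 and −0.65 with Hk1, while Slc2a1 had r = 0.95 with Ldha and 0.88 with Pgk1, given as descriptions.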

How the data were processed

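RNA-seq gene tables of 12 libraries were used, and the 4C-seq and ChIP-seq samples were not. Each deposited table holds whole-number read counts per gene symbol. Per the submitters' processing notes, the authors used HISAT2 2.1.0, HTSeq 0.9.1 and the mm10 build. Neither annotation nor strand setting is given in the sources used here. Lines for reads without a gene, which came to 1.11 to 1.20 times the counted reads for the no-feature line, stayed out of library sizes and tests.

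The main test was edgeR 4.0.16 (R 4.3.3): filterByExpr on genotype, TMM scaling, and a robust quasi-likelihood fit to all 12 libraries with 1 mean per genotype. Each gene had 1 spread shared by all genotypes, although WT libraries varied more. Standard errors and p-values can therefore be too small against WT and too large between KO genotypes. With only the 6 libraries compared, 15.9% of genes were called in E1-KO against WT cells, against 34.2%. Between E1-KO and E2-KO cells the shares were 21.4% and 0.596%. P-values were adjusted by Benjamini-Hochberg over the 16765 genes tested, with a call at an adjusted p below 0.05. CPM are TMM-normalised with SDs over 3 libraries; log2 fold changes carry standard errors. The step was tested on simulated counts that gave each gene 1 spread shared by all genotypes. That trial therefore does not cover the wider spread of the real WT libraries. Alternatives were other scalings, DESeq2 1.42.0, limma 3.58.1 voom with sample weights, no filter, fewer libraries, removal of GC content and length trends, and a replicate block; the fit to the 9 KO libraries was added after seeing the data. Positions, exon lengths and GC content come from GENCODE M21 (GRCm38), with values for 48108 of 52535 symbols.

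The 10 genes and the lists of related genes were chosen with earlier results of these data known. All 10 genes are named; from each list, genes among the 3 with the smallest adjusted p in a comparison were named.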

Additional observations from a re-analysis of the deposited data

How the results depend on the processing

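The settings tried were 10 to 11 other ways of fitting and the omission of each of 12 libraries, with 22 settings for comparisons with WT and 23 between KO genotypes. Across the 60 gene and comparison pairs of the 10 genes, 482 values from the other fits kept direction and side of the threshold, 45 lost a call, 79 gained one and 24 changed sign; without 1 library the numbers were 597, 87, 25 and 11. Among 100 results of genes in the related lists, 59 were called in every setting. The numbers of genes called per list, with marker lists included, were less steady. Over the settings, 2984 of these counts stayed near the main count and 796 moved away from it. Scaling by library totals moved the median log2 fold change of all genes in E1-KO against WT cells to 0.10 and the share of higher calls to 57.1%, against −0.01 and 45.9% with TMM; in D-KO against E1-KO cells it gave −0.11 and 36%, against −0.01 and 52.9%, and in E1-KO against E2-KO cells 65% of calls were higher, against 54%. Removing GC content and length trends made 53.8% of calls higher in D-KO against E2-KO cells, against 41.1%. Where a value changed, the cause was not tested, except that fewer libraries or more genes enter some fits. Leaving out 1 KO library also gives the WT libraries more weight in the shared spread of each gene, whichever genotypes are compared.

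With only the 6 libraries of the compared genotypes, 1 of the 10 genes was higher and 2 lower in E1-KO than in WT cells (2552 genes called in all). In E2-KO against WT cells 1 was higher and 0 lower (2535 genes), and in D-KO against WT cells 2 were higher and 1 lower (1438 genes). Between D-KO and E1-KO cells that fit gave 7 higher and 2 lower (8027 genes). Between D-KO and E2-KO cells it gave 7 higher and 3 lower (5872 genes), and between E1-KO and E2-KO cells 6 lower (3378 genes). The 9 KO libraries gave the same counts of the 10 genes for these 3 pairs, with 7898, 6124 and 3467 genes called in all, voom gave them with 8007, 5877 and 2953 genes, and the fit without WT replicates 1 and 3 gave them with 8030, 6157 and 3457 genes. Without those WT libraries, 5 of the 10 were lower in E2-KO and 8 higher in D-KO than in WT cells, with 6238 genes called in all in D-KO against WT cells; the 1 WT library left is assumed to vary like the other genotypes. DESeq2 called 4 of the 10 lower in E1-KO than in E2-KO cells (247 genes in all), and 1145 genes between D-KO and E2-KO cells.

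Without the filter on low counts, 1 of the 10 was higher in E1-KO and 3 in D-KO than in WT cells, 2 higher in D-KO than in E2-KO cells (1472 genes), and 2 lower in E1-KO than in E2-KO cells (415 genes). With library totals, 3 were lower in E1-KO than in WT cells and 2 higher in D-KO than in E2-KO cells. In D-KO against E1-KO cells 2 were lower, and the genes called higher were those of the main test. Removing GC content and length trends gave 1370 genes called in all between D-KO and E2-KO cells and 260 between E1-KO and E2-KO cells.

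The replicate numbers of the labels did not pair the libraries: over 18 pairs of libraries with the same number, the correlation of deviations from the genotype mean was −0.07 to 0.08, and 2 of 12 libraries correlated best with their own number. A replicate block left 3 of the 10 higher in D-KO than in WT cells, 2 higher in D-KO than in E2-KO cells and 0 lower in E1-KO than in E2-KO cells; with trends removed too, 1151 genes in all were called between D-KO and E2-KO cells and 187 between E1-KO and E2-KO cells.

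Leaving out 1 library at a time gave 1 to 2 higher and 3 to 6 lower in E1-KO than in WT cells (3965 to 8753 genes in all), 1 to 4 higher and 2 to 4 lower in E2-KO than in WT cells (3969 to 8888 genes), and 3 to 8 higher in D-KO than in WT cells (2413 to 7006 genes). It gave 6 to 7 higher and 1 to 2 lower in D-KO than in E1-KO cells (1174 to 4934 genes), 1 to 6 higher and 0 to 1 lower in D-KO than in E2-KO cells (227 to 2875 genes), and 0 to 5 lower in E1-KO than in E2-KO cells (16 to 722 genes).

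Sign changes touched values near 0 or moved by the GC trends. With GC content and length trends removed, and with the block added in brackets, the log2 fold change in E2-KO against WT cells became −0.175 (−0.164) for Aldoa, −0.147 (−0.137) for Eno1 and −0.457 (−0.454) for Pkm, in D-KO against WT cells −0.072 (−0.063) for Slc2a1, in D-KO against E1-KO cells 0.069 (0.07) for Hk1, and in E1-KO against E2-KO cells −0.113 (−0.113) for Pfkp. In E1-KO against WT cells, Aldoa was 0.015 under voom, Eno1 0.025 with library totals and Hk2 −0.45 to 0.005 without 1 library, the last without WT replicate 3. In E2-KO against WT cells, Pkm was −0.001 with DESeq2 size factors, −0.143 without WT replicates 1 and 3 and −0.061 to 0.112 without 1 library, the first without WT replicate 3. In D-KO against WT cells, Slc2a1 was −0.041 without WT replicates 1 and 3 and −0.046 to 0.177 without 1 library, the first without WT replicate 1. Hk2 in D-KO against WT cells, at 0.00 in the main result, was 0.032 with library totals, 0.186 under voom, 0.019 without the filter, 0.002 with 6 libraries, 0.019 with the replicate block, 0.003 with block and trends, 0.262 without WT replicates 1 and 3 and −0.157 to 0.297 without 1 library, the last without WT replicate 3. Pfkp in E1-KO against E2-KO cells was 0 without E1-KO replicate 3.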
